A study of Mus musculus with 9 samples.

Results

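Interferon-stimulated antiviral effector genes were followed across spleens of mice with and without Graves' disease. They were taken by name, from a list of 43 mouse genes whose products sense, cut, edit or block viral nucleic acid and proteins or are induced with them by interferon. The list was chosen with earlier results of these data known. Of the 43, 39 had at least 1 array probe that could be matched by accession, out of 32451 genes or accessions on the array. Those 39 genes were read by 53 probes on 62 spots, and 14 of them had several probes. Mx1, Mx2, Oas1b and Ddx60 had no matched probe. Oas1g had 2 probes, which were well above background on 0 of 9 arrays, and was not tested. The remaining 38 genes were tested, and 36 of these were well above background on all 9 arrays. The other two, Oas1a and Slfn5, were so on 5 arrays each. The low-signal filter therefore removed 1 gene.

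Type I interferons bind a receptor of 2 chains, Ifnar1 and Ifnar2, and kinases on its inner side activate a transcription factor complex that includes Stat2 and Irf9. The complex binds a DNA element, the interferon-stimulated response element (ISRE), in front of a common set of target genes. Most nucleated cells can respond in this way, and spleen holds macrophages, dendritic cells and lymphocytes that both make and sense interferon. The products act in layers. Some recognise foreign RNA or DNA, others degrade or edit RNA or stop translation, and a further set modifies proteins with ISG15, ubiquitin or ADP-ribose.

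The study's title names selenium intake and the risk of Graves' disease, in which autoantibodies drive the thyroid through the thyrotropin receptor. Total RNA of spleen from female BALB/c mice was hybridised to 9 Agilent 1-colour arrays, with 3 samples in each of 3 groups. Diseased mice had either a low dietary selenium supply (low Se GD) or a normal one (normal Se GD), and mice without the disease had the low supply (low Se non-GD). No group analysed here had a normal supply without disease. The control mice thus shared the low supply with 1 of the diseased groups, and comparing normal Se GD spleens with low Se non-GD spleens changes disease and supply together. How the disease was brought about and what the diets held are not stated in the sources used here. The labels do not say that the samples came from separate animals, so a p-value here speaks only of the spread among samples, part or all of which may be technical. Levels are given as log2 of the processed signal minus the 75th percentile of the array, and differences as log2 fold changes. In whole spleen, fewer cells that express a gene and less of its RNA per cell cannot be told apart.

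Promoter sequence is shown because the ISRE is the element through which these genes are known to be induced. An entry in the RefSeq promoter table (GRCm38.p6) was matched for 31 of the 43 genes. The core of the ISRE, here GAAA, any pair of bases and GAAA again, was searched on both strands of the 250 bases before the start and was present for 10 of the 31 genes (32.3%), against 3.46% of all 27025 genes in the table. The 10 were Bst2, Ddx60, Isg15, Lgals9, Oas1a, Oas1g, Oas3, Rsad2, Slfn5 and Trim30a. The letters TTCNNNGAA, the core of the gamma-activated site, were present for 4 of the 31 (12.9%), against 8.13% of all genes. Below are the 150 bases before the start for the 4 genes with an ISRE core that were higher in low Se GD than in low Se non-GD spleens, all on the minus strand, with the matching letters in capitals. They lie at chr4:156200819-156200968 for Isg15, chr7:104465194-104465343 for Trim30a, chr8:71537473-71537622 for Bst2 and chr11:78984925-78985074 for Lgals9.
Isg15: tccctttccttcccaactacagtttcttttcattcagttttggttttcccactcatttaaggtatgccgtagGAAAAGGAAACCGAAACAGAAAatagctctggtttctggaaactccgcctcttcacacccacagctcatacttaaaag
Trim30a: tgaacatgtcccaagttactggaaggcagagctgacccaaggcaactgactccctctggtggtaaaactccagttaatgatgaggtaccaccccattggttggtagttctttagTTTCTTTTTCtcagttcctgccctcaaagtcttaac
Bst2: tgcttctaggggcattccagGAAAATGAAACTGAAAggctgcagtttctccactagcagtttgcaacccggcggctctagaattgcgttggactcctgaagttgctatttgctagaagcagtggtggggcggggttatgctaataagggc
Lgals9: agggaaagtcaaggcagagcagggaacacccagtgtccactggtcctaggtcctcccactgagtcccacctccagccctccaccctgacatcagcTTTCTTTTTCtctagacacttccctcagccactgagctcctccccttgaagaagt
Isg15 held 3 overlapping matches, which began 78, 72 and 66 bases before the start. Bst2 held 2 that overlapped, at 130 and 124 bases, while Trim30a and Lgals9 each held 1 match on the reverse strand, at 36 and 55 bases. A second window of Trim30a held none. A match is a description of the letters only. Of the 17 genes with a promoter entry that were higher in low Se GD, 4 held the core.

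Several facts about the arrays stand before the results. The share of spots well above background was 72.6% to 82.6% on 8 arrays and 58.4% on normal Se GD replicate 3. By scan time in the file headers the arrays form 3 slides. Low Se GD replicate 1 shared slide 1 with all low Se non-GD arrays. Slide 2 had 4 arrays, the other low Se GD replicates and normal Se GD replicates 1 and 2, and slide 3 had only normal Se GD replicate 3. A ribosomal RNA signal, Rn28s1, was 3.003 to 5.59 in low Se GD spleens and 4.93 to 5.99 in normal Se GD spleens, against 0.45 to 0.83 in low Se non-GD spleens, and a control spot named E1A a107 was 1.01 to 2.51 and 0.87 to 2.37, against 4.72 to 5.85. These signals moved with disease, and their part in the results below was not tested. Low Se GD replicate 2 was the middle array of its group for 30 of the 38 genes (63.3% of all genes tested) and low Se non-GD replicate 3 for 32 of 38 (70.9%). Normal Se GD replicate 1 was the middle one for 34 of 38 (54.4%). The sources used here do not say whether low Se GD replicate 2 and low Se non-GD replicate 3, called the in-between arrays here, are samples of their own. Counts of called genes are given below with and without both, and single genes with all 9 arrays.

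Low Se GD spleens were first compared with low Se non-GD spleens, which holds the low selenium supply fixed and differs by disease. Most antiviral effector genes were higher in the diseased spleens: 26 of the 38 were called higher and 1 lower at an adjusted p under 0.05 by limma. That is 68.4% higher and 2.63% lower, where 12.8% and 12.2% of all 26325 genes tested were called in those directions. The genes were listed with earlier results of these data known, so this contrast is a description and not independent support. The median log2 fold change of the 38 was 0.88, and 0.08 over all genes tested. All 3 low Se GD values lay above all 3 low Se non-GD values for 33 genes and below them for 2, while this held for 29.5% and 23.4% of all genes. Without both in-between arrays limma called 0 of the 38, and 0.247% of all genes were called higher and 0.775% lower. The median was then 0.94, against 0.07 over all genes. At an unadjusted p under 0.05, 22 of the 38 were higher and 1 lower, and 36 were above 0. Shares of all genes were not taken for those counts in this fit, so nothing is read from them. With 0 called without these arrays, each rise or fall of a single gene in this comparison holds for the fit of all 9 arrays. Within slide 1, with its single low Se GD array, the median was 0.87 (0.08 over all genes). Slide as a block gave 22 higher (fixed) or 26 (random), where 15% and 14.4% of all genes were called higher. Leaving out 1 array at a time gave between 12 and 33 genes higher, while 5.67% to 22.4% of all genes were called higher. Fewer than 18 were called higher without low Se GD replicate 1 (17), 2 (12) or 3 (15) and without low Se non-GD replicate 2 (14) or 3 (12). Of the 27 calls 12 were kept in all 9 of these fits, those of Oas2, Oasl2, Rtp4, Parp12, Ifi27l2a, Trim30a, Eif2ak2, Xaf1, Dtx3l, Ifih1, Parp9 and Adar. Bst2, Herc6, Ifi47, Lgals3bp and Parp14 lost the call in 7 fits, Ifi204, Oasl1 and Trim21 in 6, Cmpk2, Isg15 and Sp100 in 5, and Dhx58, Lgals9, Usp18 and Zbp1 in 3.

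**Figure D1:**
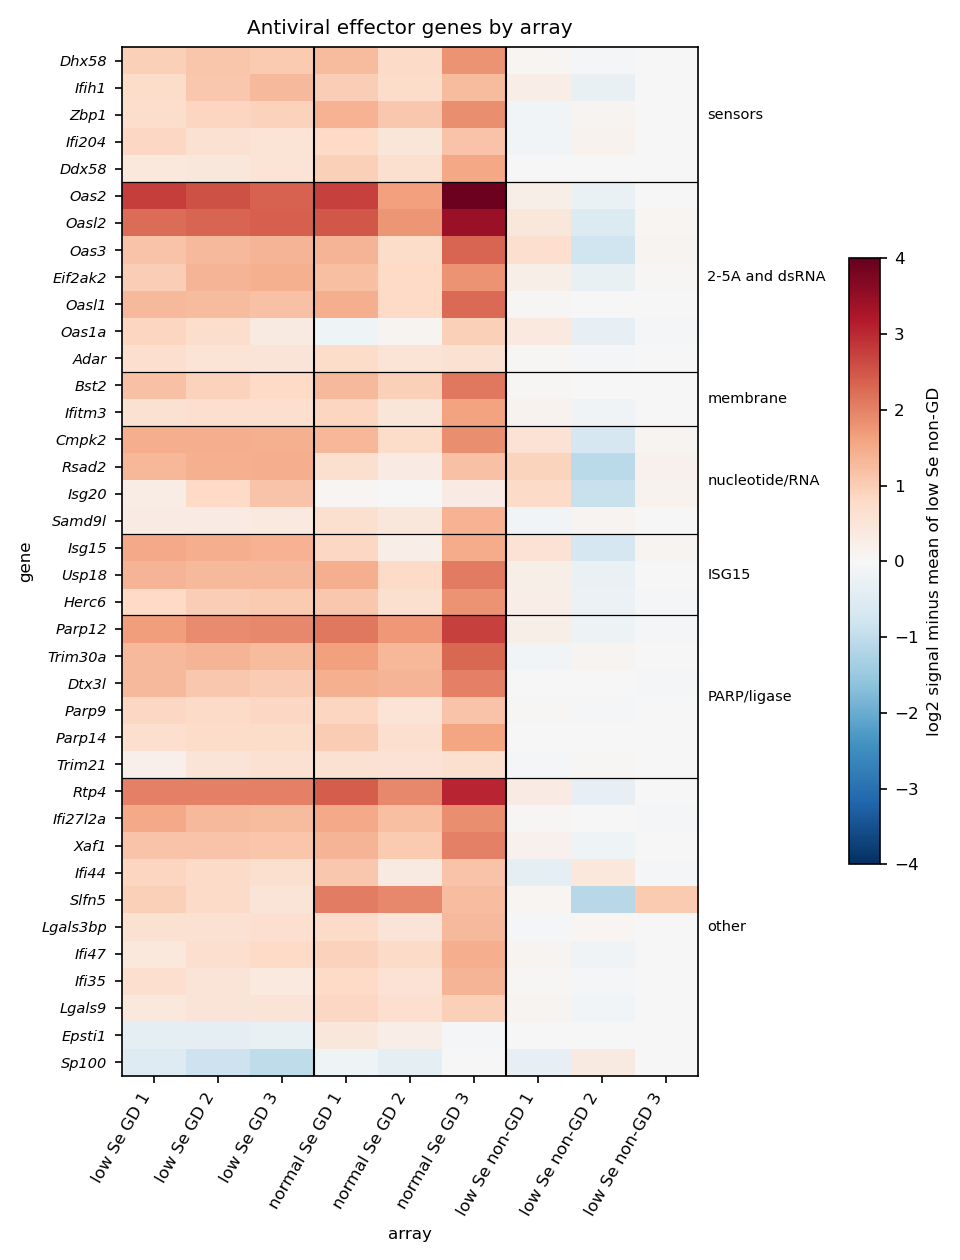
Log2 signal of the 38 tested genes (rows, grouped by role) on the 9 arrays (columns), each minus the gene's mean over the 3 low Se non-GD arrays, with red for higher and blue for lower. Most rows are red on the 6 GD arrays, deepest for Oas2, Oasl2, Rtp4 and Parp12, and normal Se GD replicate 3 is the deepest column, while Epsti1 and Sp100 are blue on the low Se GD arrays.

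The oligoadenylate synthetases, which make the messenger that switches on the RNA-cutting enzyme RNase L, and the other enzymes that act on double-stranded RNA held the 2 widest changes. Of 7 tested, 5 rose in low Se GD, at a group median of 1.26. Oas2 stood at 3.09, 2.87 and 2.65 in low Se GD spleens, 3.03, 1.94 and 4.22 in normal Se GD spleens, and 0.54, 0.05 and 0.33 in low Se non-GD spleens. Every GD value lay above every non-GD value, and the normal Se GD arrays were the most spread. The log2 fold change in low Se GD was 2.56, or 5.91-fold (SE 0.50, adjusted p = 0.00884). Oasl2, a synthetase-like protein, read 1.22, 1.32 and 1.37 in low Se GD spleens, 1.47, 0.73 and 2.43 in normal Se GD spleens, and -0.56, -1.55 and -0.94 in low Se non-GD. Its 2 GD groups also stood clear of the controls, and it rose by 2.32 (SE 0.42, adjusted p = 0.00666).

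Oasl1, a further synthetase-like protein, was at 2.12, 2.08 and 1.99 in low Se GD spleens, 2.27, 1.61 and 3.10 in normal Se GD spleens, and 0.86, 0.81 and 0.80 in low Se non-GD. It rose by 1.24 in low Se GD (SE 0.32, adjusted p = 0.0254) with no overlap. Eif2ak2, the kinase that halts translation when it binds double-stranded RNA, read -0.49, -0.14 and -0.05 in low Se GD spleens, -0.27, -0.68 and 0.30 in normal Se GD spleens, and -1.25, -1.77 and -1.43 in low Se non-GD. It rose by 1.26 (SE 0.26, adjusted p = 0.0118). Adar, which edits adenosine to inosine in RNA duplexes, rose by 0.58 and varied little between arrays (SE 0.09, adjusted p = 0.00440). Oas3 stood at -1.19, -1.04 and -0.95 in low Se GD spleens, -0.96, -1.59 and -0.01 in normal Se GD spleens, and -1.64, -3.13 and -2.21 in low Se non-GD. The low Se GD arrays all lay above the controls, which spread over 1.49 log2 units, and the difference of 1.27 was not called (SE 0.46, adjusted p = 0.0826). Oas1a was well above background on all 3 low Se GD arrays, on 2 normal Se GD arrays and on 0 low Se non-GD arrays. Its measured means were -5.18 ± 0.25 in low Se GD spleens and -5.82 ± 0.36 in low Se non-GD spleens (SD, n = 3 each). Their ratio was 1.25-fold with dim values raised to the lowest signal well above background. The groups overlapped, the 95% interval of the log2 fold change was -0.08 to 1.37, and limma did not call Oas1a (adjusted p = 0.175).

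Sensors of foreign nucleic acid rose for 4 of 5 tested, with a group median of 0.81. Ifih1, which binds long double-stranded RNA, and Dhx58, a relative without a signalling domain, both rose by 1.04 (adjusted p = 0.0109 and 0.0153). Zbp1, a sensor of left-handed nucleic acid that can start cell death, rose by 0.81 (adjusted p = 0.0173). The DNA sensor Ifi204 read 4.07, 3.87 and 3.81 in low Se GD spleens, 4.05, 3.72 and 4.40 in normal Se GD spleens, and 3.14, 3.38 and 3.22 in low Se non-GD. Both GD groups lay above the controls, and Ifi204 rose by 0.67 in low Se GD (SE 0.18, adjusted p = 0.0281). Ddx58, which detects RNA with a free triphosphate end, differed by 0.48 and was not called by the probe used (adjusted p = 0.132).

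Of the factors that act at membranes, Bst2, the tether that holds budding virions at the cell surface, stood at 2.01, 1.76 and 1.66 in low Se GD spleens, 2.13, 1.79 and 2.97 in normal Se GD spleens, and 0.89, 0.84 and 0.82 in low Se non-GD. It rose by 0.96 in low Se GD (SE 0.27, adjusted p = 0.0367), and its controls spanned 0.07. Ifitm3, which blocks fusion of virus with endosomes, was at 4.25, 4.32 and 4.33 in low Se GD spleens, 4.51, 4.16 and 5.27 in normal Se GD spleens, and 3.79, 3.52 and 3.67 in low Se non-GD. The groups did not overlap, but the difference of 0.64 was not called (SE 0.25, adjusted p = 0.104).

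Among 4 effectors that work through nucleotides or RNA decay, Cmpk2 was called, with probes of opposite direction, and the rest were not called. Cmpk2, a mitochondrial nucleotide kinase, read 0.98, 0.99 and 0.98 in low Se GD spleens, 0.87, 0.28 and 1.39 in normal Se GD spleens, and 0.13, -1.13 and -0.36 in low Se non-GD. By this probe it was higher by 1.44 in low Se GD (SE 0.36, adjusted p = 0.0224), and its second probe was called lower (-2.03). Rsad2, which makes a chain-terminating nucleotide, was at 2.86, 2.96 and 3.01 in low Se GD spleens, 2.17, 1.86 and 2.72 in normal Se GD spleens, and 2.43, 0.48 and 1.73 in low Se non-GD. The low Se GD arrays lay close together above controls that spread over 1.95 log2 units, and the difference of 1.40 missed the threshold (SE 0.45, adjusted p = 0.0574). The exonuclease Isg20 stood at 3.91, 4.39 and 4.76 in low Se GD spleens, 3.68, 3.59 and 3.93 in normal Se GD spleens, and 4.36, 2.71 and 3.75 in low Se non-GD. Its groups overlapped and the difference was 0.75 (SE 0.40, adjusted p = 0.216). Samd9l, a growth and translation inhibitor, differed by 0.35 (adjusted p = 0.303).

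All 3 genes of the ISG15 system were called higher in low Se GD, and each lost the call in 3 or more of the 9 fits with 1 array left out. Isg15, the ubiquitin-like modifier, was at 5.07, 5.03 and 4.95 in low Se GD spleens, 4.39, 3.82 and 5.05 in normal Se GD spleens, and 4.13, 2.88 and 3.67 in low Se non-GD. It rose by 1.46, or 2.75-fold (SE 0.37, adjusted p = 0.0250), and 1 of the normal Se GD arrays lay within the control range. Its second probe gave 0.28 and was not called. Usp18, the protease that takes ISG15 off its targets and restrains the interferon receptor, read 1.63, 1.57 and 1.56 in low Se GD spleens, 1.74, 1.04 and 2.35 in normal Se GD spleens, and 0.52, 0.01 and 0.29 in low Se non-GD. It rose by 1.31 (SE 0.30, adjusted p = 0.0168). Herc6, the ligase that attaches ISG15 in mice, rose by 0.94 (adjusted p = 0.0444) and was called in 2 of the 9 fits.

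ADP-ribosyltransferases and ubiquitin ligases rose in low Se GD for 6 of 6 tested, by a group median of 0.97. Parp12, which adds single ADP-ribose units and restricts viral translation, stood at -0.81, -0.62 and -0.59 in low Se GD spleens, -0.38, -0.76 and 0.24 in normal Se GD spleens, and -2.26, -2.71 and -2.53 in low Se non-GD. It rose by 1.83, or 3.55-fold (SE 0.25, adjusted p = 0.00250), well beyond the spread of either group. Trim30a, a ligase of the tripartite-motif family, was at 1.34, 1.40 and 1.33 in low Se GD spleens, 1.70, 1.38 and 2.34 in normal Se GD spleens, and -0.05, 0.16 and 0.05 in low Se non-GD. It rose by 1.30 (SE 0.22, adjusted p = 0.00532). Dtx3l read 1.28, 1.09 and 1.01 in low Se GD spleens, 1.43, 1.37 and 2.03 in normal Se GD spleens, and 0.03, 0.00 and -0.04 in low Se non-GD, and rose by 1.13 by the probe used (SE 0.18, adjusted p = 0.00418). Its partner Parp9 rose by 0.80 (adjusted p = 0.00730). Parp14 was at 3.81, 3.86 and 3.87 in low Se GD spleens, 4.15, 3.80 and 4.70 in normal Se GD spleens, and 3.11, 3.12 and 3.15 in low Se non-GD. The narrow control range left no overlap, and Parp14 rose by 0.72 (SE 0.20, adjusted p = 0.0361). Trim21, a cytosolic antibody receptor with ligase activity, rose by 0.44 (adjusted p = 0.0301).

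Of the 11 remaining interferon-induced genes 6 rose in low Se GD, 1 fell and 4 were not called. Rtp4, a chaperone of cell-surface receptors, stood at 2.27 on each of the low Se GD arrays and at 2.66, 2.17 and 3.29 in normal Se GD, against 0.59, -0.08 and 0.24 in low Se non-GD. It rose by 2.02, or 4.06-fold (SE 0.28, adjusted p = 0.00267). Ifi27l2a, a small interferon-induced membrane protein, was at 6.28, 6.07 and 6.03 in low Se GD spleens, 6.30, 5.97 and 6.62 in normal Se GD spleens, and 4.83, 4.75 and 4.74 in low Se non-GD. It rose by 1.35 with the smallest adjusted p of the 38 genes (SE 0.16, adjusted p = 0.00186). Xaf1, a partner of the apoptosis inhibitor XIAP, read 0.80, 0.82 and 0.79 in low Se GD spleens, 1.05, 0.71 and 1.68 in normal Se GD spleens, and -0.15, -0.50 and -0.32 in low Se non-GD, and rose by 1.13 (SE 0.23, adjusted p = 0.0104). The secreted glycoprotein Lgals3bp (0.64), the immunity-related GTPase Ifi47 (0.62, adjusted p = 0.0499) and the lectin Lgals9 (0.49) also rose. Ifi44 (0.75, adjusted p = 0.0714), Slfn5 (0.74, adjusted p = 0.320), Ifi35 (0.52, adjusted p = 0.0900) and Epsti1 (-0.34, adjusted p = 0.105) were not called.

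Sp100, a component of nuclear bodies that silence incoming viral DNA, was the gene that fell. It stood at -1.90, -2.22 and -2.42 in low Se GD spleens, -1.56, -1.78 and -1.36 in normal Se GD spleens, and -1.73, -1.04 and -1.40 in low Se non-GD. These values ran in the order of the E1A a107 control spot over the low Se GD and the low Se non-GD arrays. Over the normal Se GD arrays they did not, and the part of the spot was not tested. The low Se GD arrays lay below all others, and Sp100 fell by 0.79 (SE 0.21, adjusted p = 0.0309). It was no longer called when low Se GD replicate 2 (-0.77, adjusted p = 0.101) or 3 (-0.67, adjusted p = 0.101), normal Se GD replicate 1 (adjusted p = 0.0510), or the non-GD replicate 2 (-0.62, adjusted p = 0.0918) or 3 (-0.79, adjusted p = 0.0908) was left out.

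**Figure D2:**
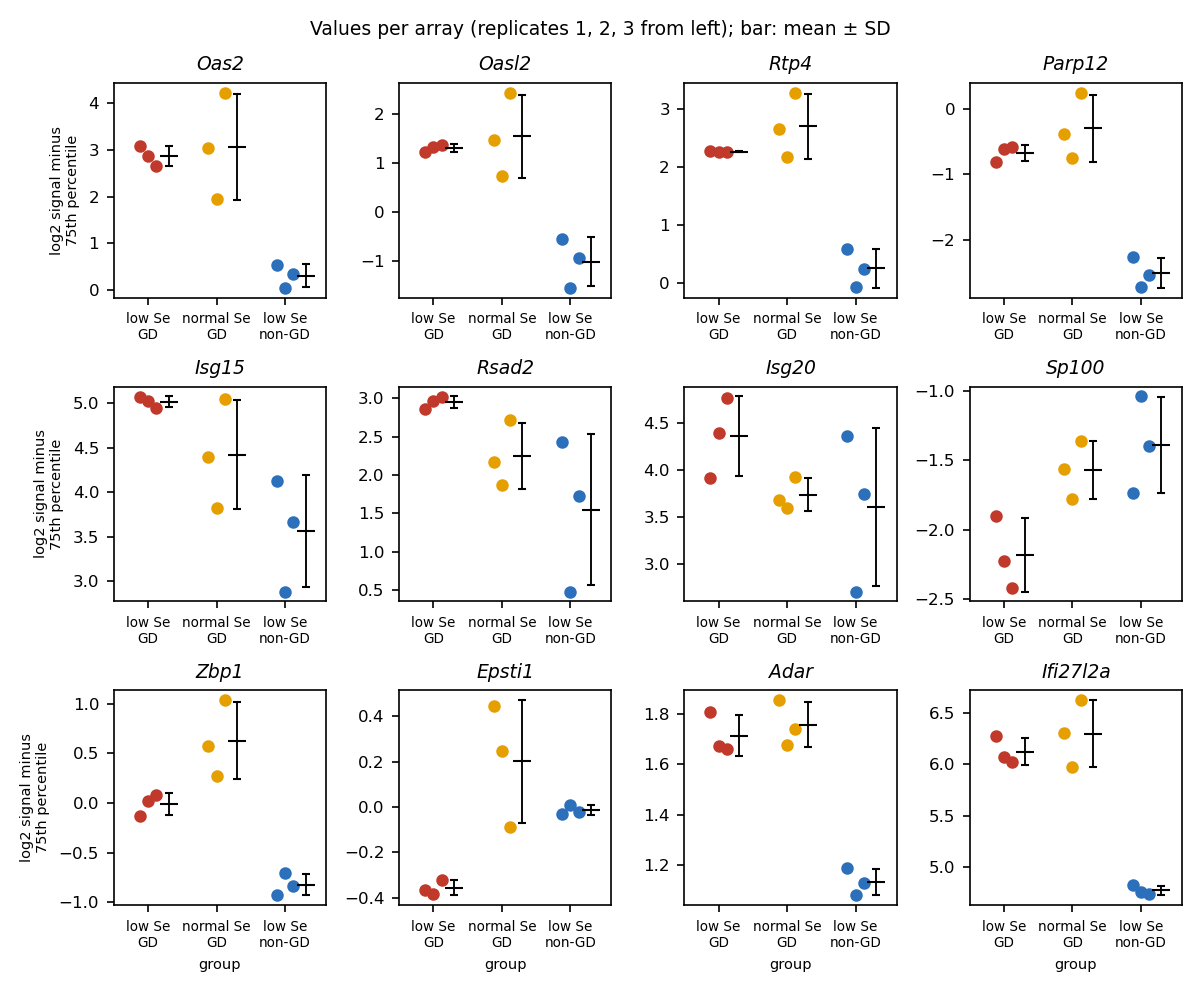
Level of 12 genes (vertical axis, log2 of the signal relative to the 75th percentile of the array) on each array of the 3 groups, with replicates 1, 2 and 3 from left to right and the mean with its SD beside them. Oas2, Oasl2, Rtp4, Parp12, Adar and Ifi27l2a show both GD groups above low Se non-GD, Isg20 overlaps between groups, and Sp100 is lowest in low Se GD.

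The second comparison, normal Se GD against low Se GD, differs by selenium supply among diseased mice. No antiviral effector gene was called in either direction: limma gave 0 of 38 at an adjusted p under 0.05, and 6 higher and 0 lower at an unadjusted p under 0.05. Of all 26325 genes tested, 0.976% were called higher and 0.292% lower. At an unadjusted p under 0.05, 3346 of them were higher and 1766 lower. The median log2 fold change of the 38 was 0.24 (0.00 over all genes), with 32 above 0, and the 3 normal Se GD values lay wholly above the low Se GD values for 8 genes and below them for 1, against 17.9% and 11.4% of all genes. The 95% intervals included 0 for 32 of 38 genes and together spanned -1.74 to 2.14, so missing the threshold does not show that the groups were alike. Within slide 2 the median was 0.03, with 2 genes higher and 2 lower (4 and 4 at an unadjusted p), and 22 of 38 above 0. Of all genes 5.81% were called higher and 4.81% lower there, so nothing is read from these counts. Without both in-between arrays limma also called 0 (2 higher and 0 lower at an unadjusted p), at a median of 0.26. The comparison shares the low Se GD arrays with the first.

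The 6 genes with a low unadjusted p, from whose number nothing is read, were Epsti1, Zbp1, Lgals9, Sp100, Ddx58 and Dtx3l. Epsti1, an epithelial-stromal interaction protein induced by interferon, read 0.45, 0.25 and -0.09 in normal Se GD against -0.37, -0.38 and -0.32 in low Se GD, with -0.03, 0.01 and -0.02 in low Se non-GD. The normal Se GD arrays lay above the low Se GD arrays, at a difference of 0.56 (SE 0.14, adjusted p = 0.0829). Zbp1 was at 0.58, 0.27 and 1.04 in normal Se GD against -0.13, 0.02 and 0.08 in low Se GD, a difference of 0.64 (SE 0.19, adjusted p = 0.123). Sp100 differed by 0.61 (adjusted p = 0.174), Ddx58 by 0.57 (adjusted p = 0.189), Dtx3l by 0.48 (adjusted p = 0.196) and Lgals9 by 0.33 (adjusted p = 0.157). At the other end stood Rsad2 (-0.70, adjusted p = 0.447), Isg20 (-0.62, adjusted p = 0.444), Isg15 (-0.60, adjusted p = 0.425) and Oas1a (-0.35, adjusted p = 0.591), followed by Cmpk2 (-0.14) and Ifih1 (-0.04). Rsad2 was the gene whose normal Se GD values all lay below those of low Se GD.

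**Figure D3:**
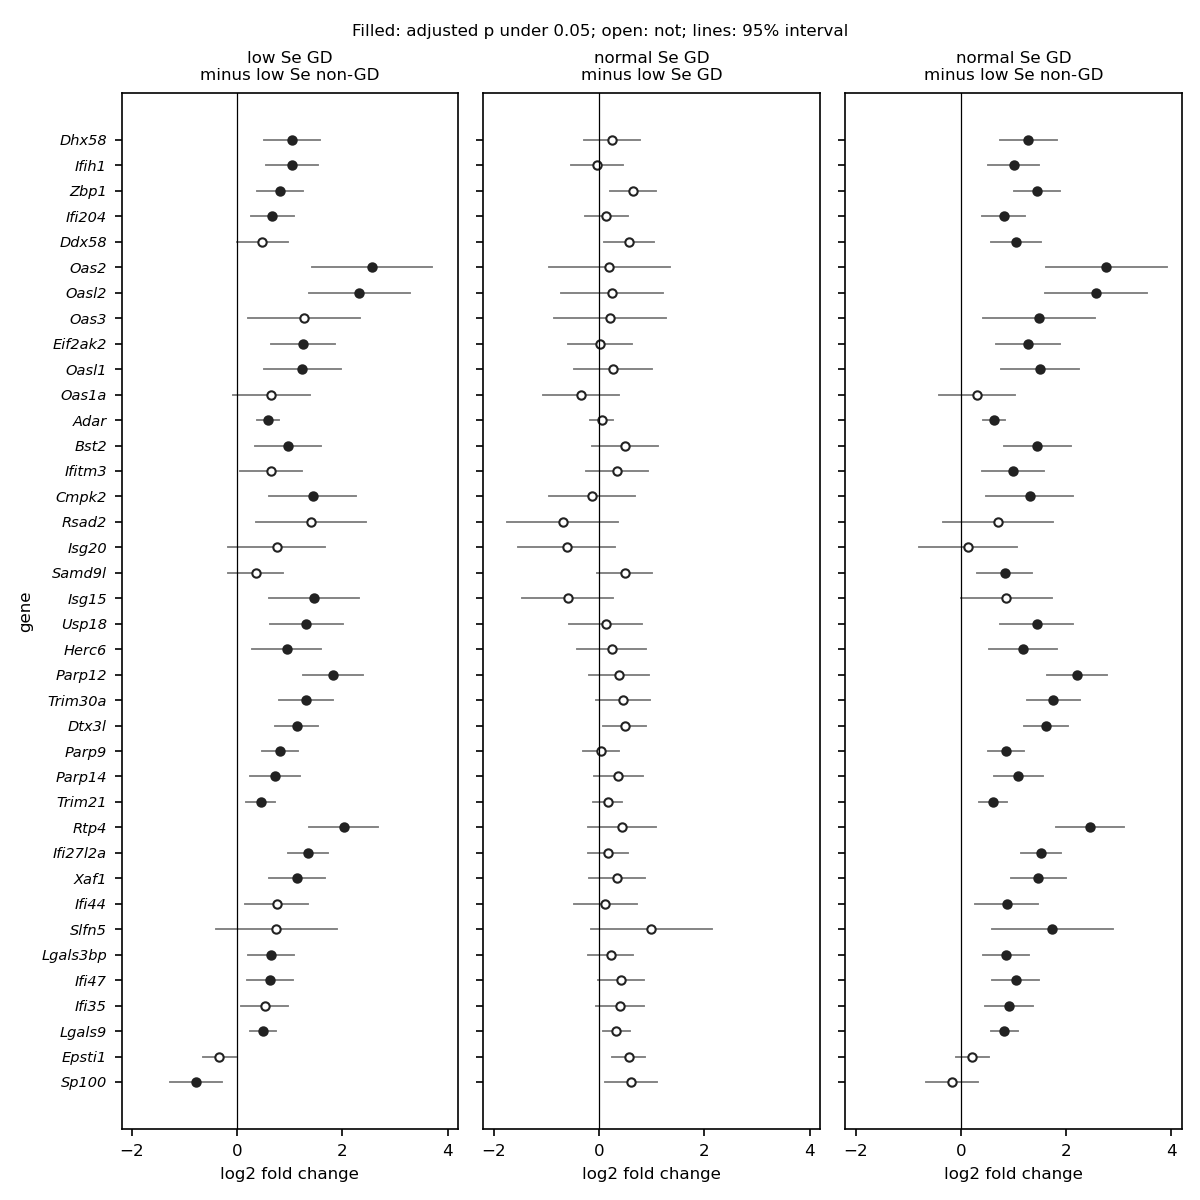
Log2 fold change of the 38 genes (horizontal axis) in the 3 comparisons, with lines for the 95% interval and filled points for an adjusted p under 0.05. Points lie right of 0 for 36 genes in the first comparison and 37 in the third, and no point is filled in the second.

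The spread among the normal Se GD arrays was wider for these genes than in the other groups. The median SD of the 38 genes was 0.46 in normal Se GD, 0.10 in low Se GD and 0.14 in low Se non-GD, where all genes tested gave 0.24, 0.15 and 0.14. The range within a group exceeded 1 log2 unit for 14 genes in normal Se GD, for 0 in low Se GD and for 6 in low Se non-GD. Normal Se GD replicate 3 was the highest array of its group for 35 of the 38 genes, as it was for 38.8% of all genes, and replicate 2 was the lowest for 35. Replicate 3 exceeded the mean of the other two by a median of 0.74 (all genes -0.11). It was also the array with the smallest share of spots above background and alone on its slide, and the part of these in the difference was not tested. Without it the median of the second comparison was 0.02, with 20 of 38 above 0 and Epsti1 called higher (0.70, adjusted p = 0.0191). Without replicate 2 the median was 0.55, with 0 genes called.

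The spread in low Se non-GD was concentrated in a few genes. The range exceeded 1 for Slfn5, Rsad2, Isg20, Oas3, Cmpk2 and Isg15, and in each replicate 2 was the lowest array. Replicate 1 was the highest for Rsad2, Isg20, Oas3, Cmpk2 and Isg15. Over the 38 genes replicate 1 exceeded replicate 2 for 28, by a median of 0.19, where it did so for 51.3% of all genes, by a median of 0.01. Across the same 3 arrays Dtx3l spanned 0.07, Oasl1 0.06, Parp14 0.05 and Epsti1 0.04.

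The third comparison, normal Se GD against low Se non-GD, changes both disease and selenium supply. Antiviral effector genes were higher in normal Se GD for 32 of 38 tested and lower for 0 (84.2%, against 18.9% of all genes called higher and 13.4% lower). The median log2 fold change was 1.07, against 0.06 over all genes, and the groups stood apart with normal Se GD above for 31 genes and below for 0, where 28% and 21.1% of all genes did so. Without both in-between arrays limma called 12 genes higher, at a median of 1.07, and 6.24% of all genes higher. The 12 were 5 of the remaining interferon-induced genes, 3 double-stranded RNA enzymes, 3 ligases and ADP-ribosyltransferases and 1 sensor. With 1 array left out, 25 of the 32 calls were kept in all 9 fits, while Oas3 and Ifi44 lost theirs in 7, Slfn5 in 5, Cmpk2 in 4, Samd9l in 3 and Herc6 and Ifitm3 in 2. In those 9 fits 11.7% to 27.2% of all genes were called higher. No slide held both groups, and with slide as a fixed block 16 genes were higher at a median of 0.83, where 12.9% of all genes were higher. The comparison shares its control arrays with the first and its diseased arrays with the second.

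The largest increases were those of Oas2 (2.76, SE 0.50, adjusted p = 0.00497), Oasl2 (2.56, SE 0.42, adjusted p = 0.00337), Rtp4 (2.46, SE 0.28, adjusted p = 0.00111) and Parp12 (2.20, SE 0.25, adjusted p = 0.00105). Trim30a rose by 1.76, Dtx3l by 1.61, Ifi27l2a by 1.53 and Oasl1 by 1.499 (adjusted p = 0.00146, 0.00101, 0.000938 and 0.00966). Xaf1 rose by 1.47 and Bst2 by 1.45 (adjusted p = 0.00285 and 0.00587). Oas3 rose by 1.48 (adjusted p = 0.0421), and without low Se non-GD replicate 2 it stood at 1.07 (adjusted p = 0.116). Slfn5, of the Schlafen family, was at -4.55, -4.68 and -5.35 in normal Se GD against -6.53, -7.71 and -5.54 in low Se non-GD, with -5.64, -5.83 and -6.09 in low Se GD. It rose by 1.73 (SE 0.50, adjusted p = 0.0314) but was well above background on only 2 normal Se GD, 2 low Se GD and 1 low Se non-GD arrays. Sensors rose for 5 of 5, ligases and ADP-ribosyltransferases for 6 of 6, double-stranded RNA enzymes for 6 of 7, membrane factors for 2 of 2 and the ISG15 system for 2 of 3. Of the nucleotide and RNA effectors 2 of 4 were called higher, Samd9l and Cmpk2, with Cmpk2 called lower by its second probe. The remaining genes rose for 9 of 11. Isg15 (0.86, adjusted p = 0.116), Rsad2 (0.70, adjusted p = 0.277), Oas1a (0.30, adjusted p = 0.506), Epsti1 (0.22, adjusted p = 0.267), Isg20 (0.13, adjusted p = 0.836) and Sp100 (-0.18, adjusted p = 0.567) were not called.

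Where a gene had several tested probes, the probe with the highest mean stood for it, and 12 members allowed a check of 1 probe by another. In the first comparison both probes were called higher for Adar, Herc6, Ifih1 and Xaf1, where 13.3% of all single probes were called higher and 11.7% lower. In the third this was so for 8 members, where 20.9% were called higher and 12.6% lower. In the first comparison probes differed in sign for Cmpk2 and Dtx3l, and in the third for Isg15 as well. The second Cmpk2 probe read -1.61, -1.88 and -2.09 in low Se GD spleens, -1.44, -2.07 and -1.21 in normal Se GD spleens, and -0.48, 0.81 and 0.19 in low Se non-GD. It was called lower, at -2.03 in low Se GD (adjusted p = 0.00542) and -1.75 in normal Se GD (adjusted p = 0.00694), while the first was called higher in both. The direction of Cmpk2 is therefore uncertain. Its second probe ran in the order of the E1A a107 control spot over the low Se GD and the low Se non-GD arrays. Over the normal Se GD arrays it did not, and the part of the spot was not tested. The second Dtx3l probe stood at -1.83 in low Se GD (adjusted p = 0.0706), and its low Se non-GD values of -2.76, -1.72 and 0.08 spread widely. The second Isg15 probe gave 0.28 in low Se GD spleens and -0.33 in normal Se GD spleens relative to low Se non-GD spleens, neither called. The second Ddx58 probe gave 1.24 in low Se GD (adjusted p = 0.00174), where the first was not called.

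**Figure D4:**
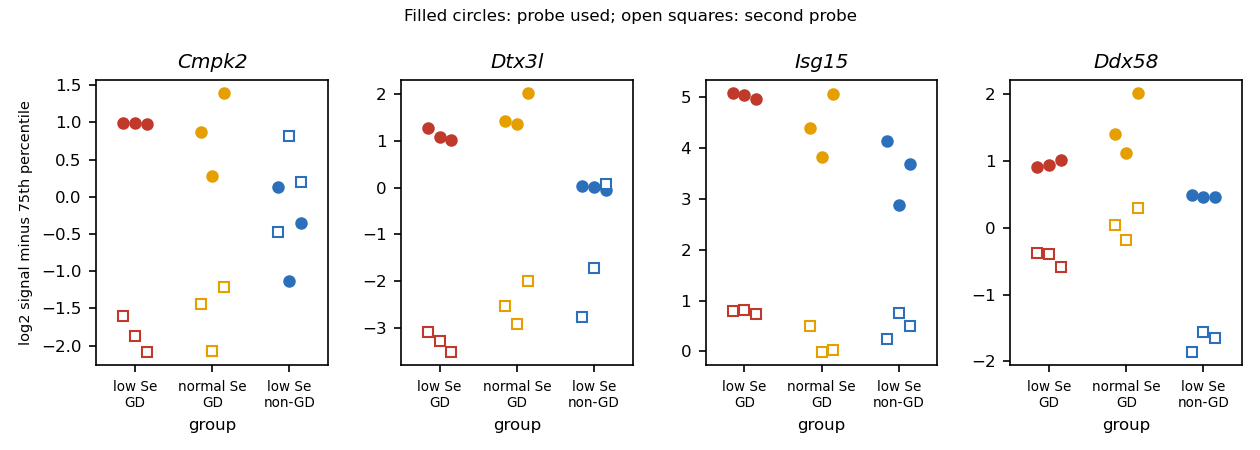
Level of both probes of Cmpk2, Dtx3l, Isg15 and Ddx58 (log2 of the signal relative to the 75th percentile of the array) by group, filled circles for the probe used and open squares for the second. The squares of Cmpk2 are higher in low Se non-GD than in the GD groups, opposite to its circles, while both probes of Ddx58 are lowest in low Se non-GD.

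Other genes of the pathway were read in the same fit. Their lists were chosen by role with earlier results of these data known, so their counts are a description and not independent support. Of all genes 12.8% were called higher and 12.2% lower in the first comparison, and 18.9% and 13.4% in the third. Of 6 genes of the Ifit family, whose proteins bind foreign RNA ends, 4 were higher and 0 lower in low Se GD than in low Se non-GD and 5 were higher in normal Se GD than in low Se non-GD. Ifit1 rose by 3.03 in low Se GD (adjusted p = 0.000824), Ifit3 by 2.40, Ifit3b by 2.03 and Ifit1bl1 by 1.16. Of 15 signalling genes and regulatory factors 5 were higher and 0 lower in low Se GD, and 6 and 0 in normal Se GD against low Se non-GD. Irf7, the factor that amplifies interferon production, read -0.41, -0.52 and -0.52 in low Se GD spleens, 0.37, -0.52 and 1.30 in normal Se GD spleens, and -2.37, -3.37 and -2.83 in low Se non-GD. It rose by 2.37 in low Se GD (SE 0.44, adjusted p = 0.00732). The feedback inhibitor Socs1 rose by 0.79, Irf2 by 0.74 and the mitochondrial adaptor Mavs by 0.61. Pias1 is in both counts by the probe used (0.45 in low Se GD, adjusted p = 0.0280 over single probes). Its other probes gave -0.05, not called, and -0.35, called lower (adjusted p = 0.0490), so its direction is uncertain. In the second comparison limma called 0 of the Ifit genes (2 higher at an unadjusted p) and 0 of the signalling genes (4 higher and 2 lower). Of all 26325 genes, 3346 were higher and 1766 lower there at an unadjusted p. Without both in-between arrays 1 Ifit gene and 0 signalling genes were higher in the first comparison (4 and 4 at an unadjusted p), and 5 and 3 in the third. Without those arrays 0.247% of all genes were called higher in the first comparison and 6.24% in the third.

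Of 11 interferon ligands tested, limma called 0 higher and 2 lower in low Se GD spleens than in low Se non-GD spleens (the same counts at an unadjusted p), namely Ifna11 (-2.51, adjusted p = 0.0201) and Ifna1 (-2.04, adjusted p = 0.00436). In the third comparison 0 were higher and 2 lower (0 and 5 at an unadjusted p). Of all genes 12.2% were called lower in the first comparison and 13.4% in the third, and nothing is read from so small a count of ligands. Of 6 receptor chains Ifnar2 rose by 0.59 in low Se GD (adjusted p = 0.00297) and Ifnar1 fell by 3.04 (adjusted p = 0.00223) by the probe used. The other Ifnar1 probes gave -0.05 (adjusted p = 0.720) and 0.34 (adjusted p = 0.251). The Ifnar1 probe used stood at 0.78, 0.33 and -0.13 in low Se GD against 2.62, 4.02 and 3.45 in low Se non-GD, and the E1A a107 control spot on those arrays was 2.51, 1.71 and 1.01 against 4.72, 5.85 and 5.35. Ifna11 was at 2.94, 2.51 and 1.82 against 4.28, 5.51 and 5.01, and Ifna1 at -1.94, -2.30 and -2.44 against -0.78, 0.37 and -0.14. All 3 probes and the control spot were lower in low Se GD and ran in the same order over the arrays of each group, and the part of the spot in these values was not tested. Leaving out both in-between arrays, limma called 0 ligands and 0 receptor chains in the first comparison (2 ligands lower, 1 chain higher and 1 lower at an unadjusted p).

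Cell type markers moved with the groups as well. Of all genes 12.8% were called higher and 12.2% lower in the first comparison, and 18.9% and 13.4% in the third. Nothing is read from a single call in a list. The summed linear signal of 9 tested macrophage markers, relative to the 75th percentile, was 88.9 to 106 in low Se GD and 97.4 to 118 in normal Se GD, against 66.9 to 68.8 in low Se non-GD, with 7 called higher and 1 lower in low Se GD. That of 7 natural killer cell markers was 11.1 to 12.6 and 11.7 to 15.6, against 5.15 to 7.24, with 4 called higher. That of 7 conventional dendritic cell markers was 5.52 to 5.90 and 7.77 to 8.78, against 4.12 to 4.18, also with 4 called higher. Sums of 8 B cell markers were 92.5 to 97.98 and 110 to 119, against 122 to 141, with 4 called lower. Sums of 7 plasma cell markers were 38.3 to 42.4 and 49.5 to 55.3, against 26.4 to 31.1, so that the 3 groups did not overlap, with 3 called higher in the first comparison and 4 in the third. Those of 5 monocyte markers were 3.91 to 4.84 and 4.49 to 6.24, against 4.21 to 4.79, with 3 called higher and 1 lower in low Se GD. Those of 6 plasmacytoid dendritic cell markers, the type that makes most interferon, were 151 to 234 and 64.8 to 183, against 266 to 280, with 1 called lower. B cell and T cell markers, which define spleen as a lymphoid organ, gave signal on every array, and limma called 0 of 8 T cell markers (0 at an unadjusted p). The sum of 6 fat cell markers was 6.77 to 68.8 in low Se GD spleens and 0.762 to 0.778 in normal Se GD spleens, against 0.639 to 5.19 in low Se non-GD spleens. Of these markers 4 were called higher in the first comparison. In the second 1 was called lower, where 0.292% of all genes were. In the first comparison 0 markers of these lists were called without both in-between arrays. At an unadjusted p, 7 macrophage, 4 natural killer cell, 4 conventional dendritic cell, 4 fat cell, 3 plasma cell and 3 monocyte markers were higher there. Lower at an unadjusted p were 4 B cell markers, 1 macrophage, 1 monocyte and 1 plasmacytoid dendritic cell marker. Shares of all genes at an unadjusted p were not taken for that fit. The part of these shifts in the effector genes was not tested.

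**Figure D5:**
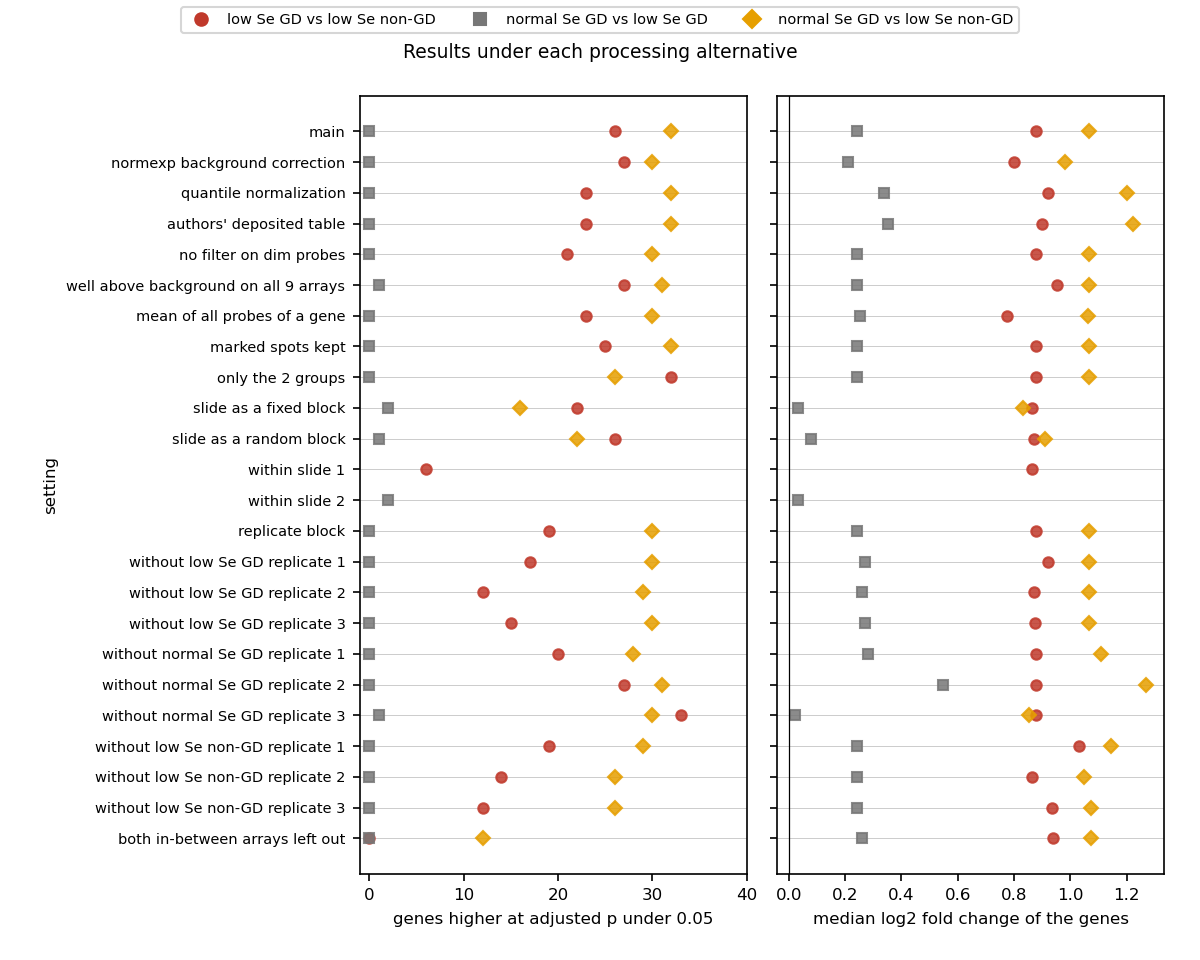
Number of the 38 genes called higher (left panel) and their median log2 fold change (right panel) in each comparison under the processing alternatives (rows). The median of the first comparison lies between 0.78 and 1.03, while the count called higher in it is 26 as reported, between 12 and 33 when 1 array is left out, and 0 without both in-between arrays.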

How the data were processed

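Groups and replicate numbers of the 9 samples were taken from the labels. The deposited scanner files hold a linear intensity per spot, from Agilent Feature Extraction 11.0.1.1 (software named in the file headers), after background subtraction and spatial detrending and without scaling between arrays. The log2 table that the authors deposited served as an alternative. No source used here says how it was made. Its low Se non-GD columns each correlated best with another array of that group (Spearman 0.997 to 0.998, own label 0.980 to 0.987), so replicate numbers there are uncertain. All 9 of its columns were mapped and 0 left unmapped.

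Log2 processed signals were scaled to the 75th percentile over 43020 non-control spots of each array. Outlier-marked spots were dropped, repeated spots averaged, and the probe with the highest mean taken for each gene. Accessions were named through the GRCm38.p6 table. Genes well above background on fewer than 3 arrays (6078) or lacking a value (48) were dropped. The other 26325 were tested in 1 fit of all arrays with limma 3.58.1 (R 4.3.3; 6 residual and 1.81 prior degrees of freedom; 2-sided), with Benjamini and Hochberg adjustment over all genes, or over 31868 probes for single probes, and a threshold of 0.05. The fit was also run on simulated data of independent arrays with a common spread per gene. These data held no slides or in-between arrays, so that run cannot speak to their effect on the counts. Saturated spots numbered 0 on every array. The ratio given for Oas1a set the brighter group against the higher of the dim gene's own signal and the lowest signal well above background. With 3 arrays per group, their number limits the precision.

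Members and lists were chosen with earlier results of these data known. Values per array cover up to 12 higher and 12 lower members with the largest called change per comparison, the member with the highest mean in each role group, and members whose probes were called in opposite directions. Rsad2, Epsti1 and Zbp1 were added after their values were seen. Of the pathway lists up to 4 called genes are named, and Pias1 was added because its probes were called in opposite directions. One gene of the signalling list is not reported here, and the list's counts leave it out. Same-numbered samples deviated from their group means with correlations of -0.21 to 0.10, so the numbers were not taken as pairs. Alternatives concerned background correction (normexp, offset 50, on median spot signals, since mean signals were not used here), scaling, filters, probes, slide and replicate blocks, and left-out arrays.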

Additional observations from a re-analysis of the deposited data

How the results depend on the processing

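Genes called as reported kept their direction under the alternatives run, apart from Cmpk2 and Dtx3l below, while the number of genes called depended on them. In the first comparison (low Se GD less low Se non-GD) the 26 genes called higher ranged from 12 to 33 with 1 array left out, and the 1 called lower from 0 to 2. In normal Se GD against low Se GD these ranges were 0 to 1 and 0 to 0, and in normal Se GD against low Se non-GD 26 to 31 and 0 to 0. Of all genes 5.67% to 22.4% were called higher in these fits of the first comparison. In those of the third, 11.7% to 27.2% were called higher and 8.84% to 16.6% lower. Within slide 1, which holds 1 low Se GD array assumed to vary like the others, 6 were higher and 0 lower (24 and 1 at an unadjusted p). Nothing is read from these slide 1 counts, because a single low Se GD array gives no spread of its own. The median log2 fold change within slide 1 was 0.87, against 0.08 over all genes. Without both in-between arrays, an alternative chosen after seeing the data, 0 were higher and 0 lower, and 12 were higher in normal Se GD against low Se non-GD. Here 2 arrays fewer entered the fit. The 1 gene called lower, Sp100, was also not called under quantile normalization, with the authors' deposited table or with slide as a fixed block, each with 0 lower, and 2 were lower when only the 2 groups were fitted. For normal Se GD against low Se GD, 1 gene was higher among genes well above background on all 9 arrays and with slide as a random block (Epsti1). Of all genes 5.03% and 5.08% were higher in these fits. With slide as a fixed block 2 were higher (Epsti1 and Dtx3l), where 4.72% of all genes were. Within slide 2 there were 2 higher (Epsti1 and Slfn5) and 2 lower (Rsad2 and Isg20), where 5.81% and 4.81% of all genes were. For normal Se GD against low Se non-GD, slide as a fixed block gave 16 higher and as a random block 22, against 32, and no slide holds both groups. Of all genes 12.9% and 14% were higher with these blocks, against 18.9%. The causes were not tested. With the mean of all probes Cmpk2 turned to -0.30 and Dtx3l to -0.35 in low Se GD, and Cmpk2 to -0.22 in normal Se GD against low Se non-GD, because their second probes fell below the controls. With normexp the median of all genes was -0.16 in the first comparison and 0.16 in the second, against 0.08 and 0.00 as reported. With the replicate number as a block, although the numbers do not pair the samples, 19 were higher and 0 lower in low Se GD, 0 and 0 in the second comparison and 30 and 0 in the third. Of all genes 9.12% were higher in the first comparison and 15.5% in the third. Precision is limited by 3 arrays per group and, for dim genes, by the lower share of spots above background on normal Se GD replicate 3.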

Other observations

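Oas1g, a further oligoadenylate synthetase, was on the array but below the detection filter. Its 2 probes read between -8.72 and -7.65 in low Se GD spleens, between -8.67 and -6.34 in normal Se GD spleens and between -7.97 and -7.65 in low Se non-GD spleens, and none of these values was well above background.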
